A study of Mus musculus with 26 samples.

Results

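The genes described here are 6 members of the sodium pump system in mouse sensory neurons: the β subunit genes Atp1b1, Atp1b2 and Atp1b3, and the FXYD regulator genes Fxyd2, Fxyd6 and Fxyd7. They were taken by symbol from the deposited RPKM table (reads scaled to gene length and library size), in which each symbol occurs once among 38828 rows, and joined by Ensembl identifier to the deposited gene counts. Neurons were sorted by flow cytometry from dorsal root ganglia of adult mice (postnatal day 23 onwards), amplified and sequenced in 26 libraries of 8 subtypes, each library holding cells pooled over several animals and sorts. The 5 A-fibre subtypes were proprioceptors (PVIRESCre;R26tdtomato(Ai14), thoracic ganglia only, 3 libraries), Aβ RA-LTMRs (rapidly adapting low-threshold mechanoreceptors, Npy2r-GFP, 5 libraries), Aβ SA1-LTMRs (slowly adapting, TrkCCreER;Retf(GFP), 3 mg tamoxifen a day at E12.5, 3 libraries), Aβ Field-LTMRs (the same alleles, 2 mg a day at postnatal days 13 to 14 or 14 to 15, 3 libraries) and Aδ-LTMRs (TrkBCreER;R26tdtomato(Ai14), 2 mg a day at embryonic days 12 to 13, 3 libraries). The 3 C-fibre subtypes, with 3 libraries each, were C-LTMRs (ThCreER;R26tdtomato(Ai14), 2 mg a day at postnatal days 13 to 14 or 14 to 15), peptidergic nociceptors (CGRP-GFP) and nonpeptidergic nociceptors (MrgD-EGFP). Subtypes therefore differ in mouse line, reporter and tamoxifen exposure as well as in cell type, and these cannot be told apart. The names of the LTMR subtypes carry a fibre class, while proprioceptors and both nociceptor subtypes were assigned to a class for the comparison. Myelination of the sorted cells was not measured, so C fibre here stands for C-LTMRs and the sorted nociceptors.

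The sodium pump moves sodium out of the cell and potassium in at the cost of ATP, and restores the gradients that action potentials and sodium-coupled carriers run down. Each pump pairs a catalytic α subunit with a glycosylated β subunit, which the α subunit needs to fold and reach the membrane, and can carry a small single-span FXYD protein that adjusts its affinity for sodium and potassium. A fibres are myelinated and conduct fast, while C fibres are unmyelinated and conduct slowly.

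In mm10 coordinates with the GENCODE release 21 mouse annotation, Atp1b1 (ENSMUSG00000026576) spans chromosome 1 from 164437109 to 164458355 on the minus strand. Atp1b2 (ENSMUSG00000041329) spans chromosome 11 from 69599736 to 69605942, also on the minus strand, and Atp1b3 (ENSMUSG00000032412) spans chromosome 9 from 96332655 to 96364442 on the minus strand. Fxyd6 (ENSMUSG00000066705, 45370185 to 45396159) and Fxyd2 (ENSMUSG00000059412, 45399669 to 45410278) are neighbours on the plus strand of chromosome 9, 3509 bases apart, and Fxyd7 (ENSMUSG00000036578, 31042513 to 31051467) lies on the minus strand of chromosome 7 between Fxyd5 and Fxyd1. Of the 6 genes, Atp1b1 overlaps another annotated gene, Nme7 on the opposite strand, and the strand setting of the read counting is not given in the sources used here.

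Of the 6 genes, 3 were matched in the RefSeq promoter table, Atp1b1, Atp1b3 and Fxyd6, and their promoters are shown for that reason. Atp1b1 and Atp1b3 ran in opposite directions between fibre classes, and Fxyd6 was lower in A fibres. Each line gives the 250 bases before the RefSeq transcription start (GRCm38.p6), written 5′ to 3′ on the strand of the gene, and capitals mark motif matches on either strand. The motifs were the GC box (GGGCGG) and the CCAAT box by its letters. Matches to a pair of TATA forms, TATAAA in one and in the other TATATA, are in capitals too. The 3 promoters lie at chr1:164458356-164458605 on the minus strand for Atp1b1, chr9:96364432-96364681 on the minus strand for Atp1b3 and chr9:45369935-45370184 on the plus strand for Fxyd6.
Atp1b1: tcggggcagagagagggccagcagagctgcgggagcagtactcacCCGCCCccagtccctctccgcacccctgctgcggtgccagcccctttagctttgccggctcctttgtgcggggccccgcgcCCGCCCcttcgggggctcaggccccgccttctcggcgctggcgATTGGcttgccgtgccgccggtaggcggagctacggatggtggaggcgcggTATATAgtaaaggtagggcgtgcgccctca
Atp1b3: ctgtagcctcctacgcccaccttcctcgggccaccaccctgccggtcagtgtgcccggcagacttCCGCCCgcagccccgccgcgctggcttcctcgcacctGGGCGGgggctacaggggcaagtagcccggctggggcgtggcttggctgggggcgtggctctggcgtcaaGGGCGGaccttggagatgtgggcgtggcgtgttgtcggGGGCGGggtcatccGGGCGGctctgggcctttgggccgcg
Fxyd6: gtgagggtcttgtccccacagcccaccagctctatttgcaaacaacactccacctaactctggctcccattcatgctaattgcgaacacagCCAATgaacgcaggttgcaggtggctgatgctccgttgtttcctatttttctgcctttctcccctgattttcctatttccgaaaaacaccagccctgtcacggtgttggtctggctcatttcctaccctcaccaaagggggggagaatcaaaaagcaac
The 2 β subunit promoters were rich in G and C (70.4% for Atp1b1 and 73.6% for Atp1b3, against a median of 52.4% over the 32851 promoters in the table), and each held 24 CpG dinucleotides against a median of 6. The Fxyd6 promoter had 50.4% G and C and 5 CpG dinucleotides. GC boxes numbered 2 in Atp1b1, 5 in Atp1b3 and 0 in Fxyd6, and 32.7% of all promoters of this length held at least 1. A CCAAT box was present in Atp1b1 and in Fxyd6 (33.8% of all promoters), TATATA in Atp1b1 (5.25% of all promoters), and neither TATAAA (12.4% of all promoters) nor the Runx core motif TGTGGT (14.0% of all promoters) was matched in any of the 3. Atp1b2, Fxyd2 and Fxyd7 are named only.

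Library totals ran from 10706522 counts (Aβ Field-LTMR library 2) to 66309214 counts (C-LTMR library 3). Genes behind the sorting labels were highest on average in their own subtype for Mrgprd, Calca, Th, Ntrk2 and Pvalb, and Ntrk3 was highest in Aβ Field-LTMRs. Npy2r and Ret were exceptions. Npy2r had 15.4 to 25.9 CPM (counts scaled to library size) in Aβ RA-LTMRs against 47.3 to 56.6 CPM in peptidergic nociceptors. Ret, whose allele labelled Aβ SA1- and Aβ Field-LTMRs, averaged 449 CPM in Aβ Field-LTMRs and, for Aβ SA1-LTMRs, 274 CPM, against 1356 CPM in C-LTMRs and 1231 CPM in nonpeptidergic nociceptors. All 7 neuronal markers and all 10 satellite glia markers had counts in every library. Summed satellite glia markers reached 793 to 4236 CPM in A-fibre libraries, against 342 to 1133 CPM in C-fibre libraries. Macrophage markers summed to at most 7.19 CPM, and each of the 9 was at 0 in some library. The edgeR p-values weigh a difference between subtypes against the spread between libraries of a subtype, with the estimate of that spread for a gene shared by all 26 libraries. A lower level in a pool of sorted cells can mean fewer cells with the transcript or less of it per cell, which cannot be told apart.

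All 6 genes passed the filter on low counts and all 6 differed over the 8 subtypes (edgeR quasi-likelihood F test with Benjamini-Hochberg adjustment, adjusted p below the 0.05 threshold), as did 78.3% of the 17411 genes tested. Between fibre classes, the mean of the 5 A-fibre subtypes minus the mean of the 3 C-fibre subtypes, all 6 genes passed, against 28.5% of genes tested. Of them, 3 were higher in A fibres (Atp1b1, Atp1b2 and Fxyd7, where the background was 15.6% of genes) and 3 were lower (Atp1b3, Fxyd2 and Fxyd6, where it was 12.9%), at an adjusted p under 0.05 and a log2 fold change of at least 1 in size. In each family the genes thus divided between the classes: the β genes 2 to 1 and the FXYD genes 1 to 2. Libraries of the classes did not overlap for Atp1b1 and Atp1b3, 2 of the 6, as for 5.81% of genes tested. Of the 28 pairs of subtypes, 14 (Atp1b2) to 22 (Atp1b3) passed per gene, where 21.8% of all tests of a gene in a pair passed.

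**Figure D1:**
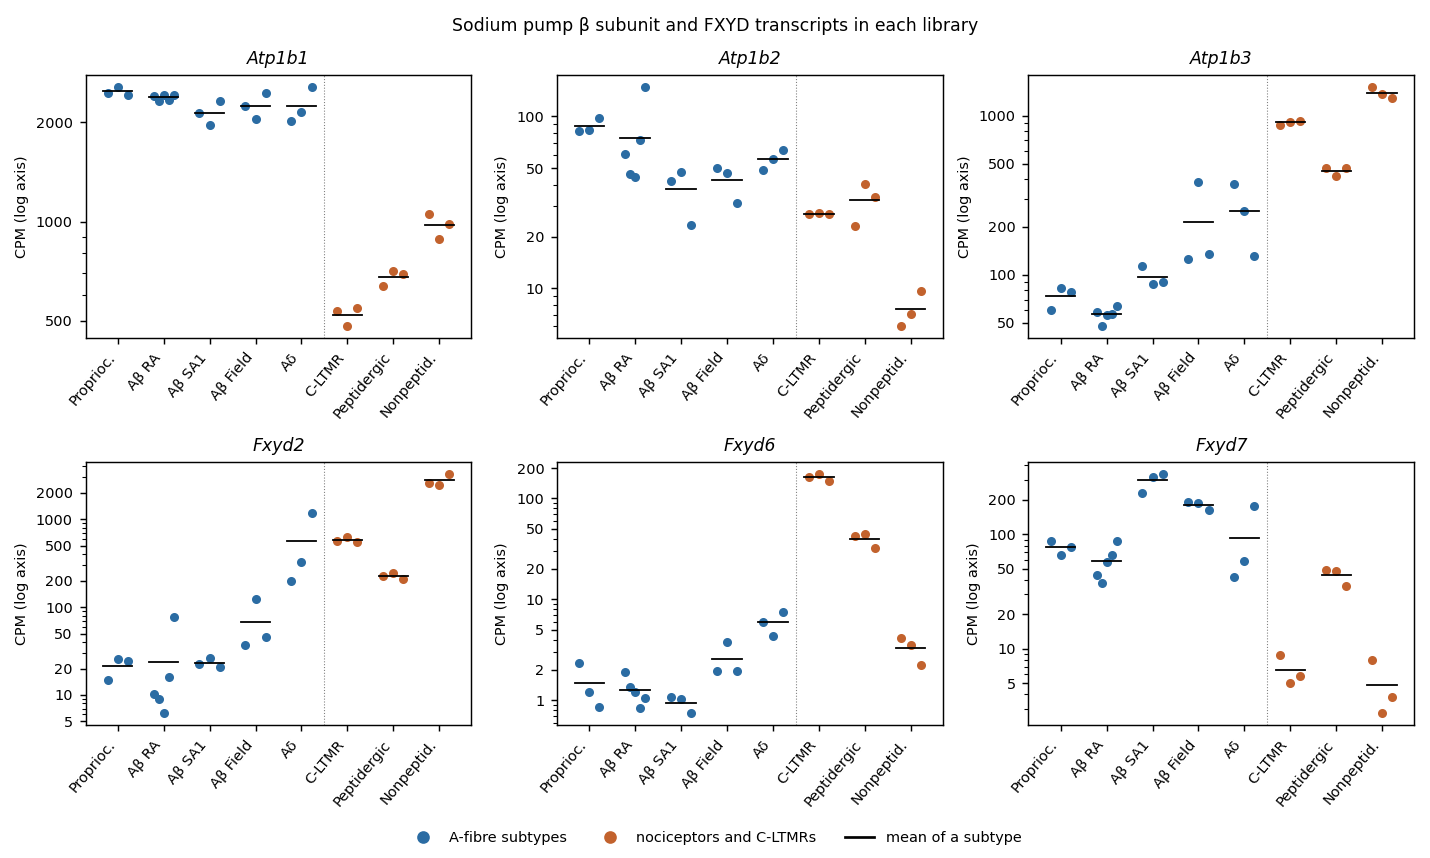
CPM (log axis) of each gene in each of the 26 libraries by subtype, A-fibre subtypes in blue left of the dotted line and C-fibre subtypes in orange, with a bar at each subtype's mean. Atp1b1 and Atp1b3 separate the classes without overlap in opposite directions, Fxyd6 is highest in C-LTMRs and Fxyd2 in nonpeptidergic nociceptors.

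Atp1b1 encodes β1, the β subunit found in most tissues, and was the most even of the 6 among A-fibre neurons and lower throughout the C-fibre ones. It had 1957 to 2566 CPM (median 2340) in the 17 A-fibre libraries, against 482 to 1057 CPM (median 696) in the 9 C-fibre libraries. By subtype it averaged 2480 ± 75.3 CPM in proprioceptors, 2379 ± 48.8 in Aβ RA-LTMRs, 2140 ± 184 in Aβ SA1-LTMRs, 2247 ± 199 in Aβ Field-LTMRs and 2236 ± 280 in Aδ-LTMRs, against 521 ± 33.7 in C-LTMRs, 680 ± 37.6 in peptidergic nociceptors and 974 ± 86.5 in nonpeptidergic nociceptors (SD, n = 5 for Aβ RA-LTMRs and 3 for the others). The lowest A-fibre library thus stood above the highest C-fibre library. The class difference was 1.71 on the log2 scale (SE 0.07, edgeR adjusted p = 1.19e-16), a 3.27-fold higher level. All 15 pairs of an A-fibre with a C-fibre subtype passed, and none of the 10 pairs within the A-fibre class did, with log2 differences there of at most 0.21 (proprioceptors minus Aβ SA1-LTMRs). Within the C-fibre class the log2 differences were below 1 in size, the largest being -0.90 for C-LTMRs minus nonpeptidergic nociceptors (edgeR adjusted p = 3.33e-06). The summed neuronal markers moved the same way, at 6803 to 12058 CPM in A-fibre libraries against 4682 to 5731 CPM in C-fibre libraries. That sum followed Snap25, which had 3330 to 9312 CPM against 938 to 2435 CPM. Each other marker overlapped between classes. Tubb3 leaned the same way, while 3 leaned the other way: Avil (197 to 356 against 289 to 609 CPM), Prph (302 to 866 against 574 to 1412 CPM) and Rbfox3 (37.8 to 242 against 140 to 245 CPM). The part of these markers in the result was not tested.

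Atp1b3 encodes β3, a widely expressed isoform, and ran opposite to Atp1b1 between the classes. Within the C-fibre class both genes were highest in nonpeptidergic nociceptors. It had 47.8 to 380 CPM (median 88.0) in A-fibre libraries, against 419 to 1524 CPM (median 918) in C-fibre libraries. The class difference was -2.83 (SE 0.15, edgeR adjusted p = 3.01e-14), a 7.10-fold higher level in C fibres. Nonpeptidergic nociceptors had 1524, 1359 and 1294 CPM, C-LTMRs 876, 918 and 928 CPM, and peptidergic nociceptors 468, 419 and 467 CPM. The nonpeptidergic nociceptors did not pass against C-LTMRs (log2 difference 0.62, SE 0.31, edgeR adjusted p = 0.123), although the libraries of the pair did not overlap. Without Aβ Field-LTMR library 2, C-LTMRs minus nonpeptidergic nociceptors was -0.62 (edgeR adjusted p = 0.0352), which is below the size threshold. C-LTMRs passed against peptidergic nociceptors (1.01, SE 0.31, adjusted p = 0.0261).

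Among A-fibre subtypes, Atp1b3 formed a lower and an upper group with all libraries in the fit. Proprioceptors had 59.9, 82.4 and 78.4 CPM, Aβ RA-LTMRs between 47.8 and 63.6 CPM in 5 libraries, and Aβ SA1-LTMRs 114, 88.0 and 90.4 CPM. Aβ Field-LTMRs had 125, 380 and 135 CPM and Aδ-LTMRs 370, 253 and 131 CPM. The groups were drawn from these same levels, so the calls that follow describe them and do not test them. All 6 pairs across these groups passed, where 8.87% to 19.5% of genes tested did, and none of the 4 pairs within them did. Library 2 of the Aβ Field-LTMRs, the shallowest of the series, and libraries 1 and 2 of the Aδ-LTMRs stood above the rest of their class. Those Aδ-LTMR libraries had reads of up to 51 bases, against 50 elsewhere. Their mapping rates were 61.4% and 74.5%, against 86.1% to 97.7% in the other libraries. Without Aβ Field-LTMR library 2, 4 of those 6 pairs passed, since Aβ Field-LTMRs no longer did against proprioceptors or Aβ SA1-LTMRs. The log2 difference of Aβ SA1-LTMRs minus Aβ Field-LTMRs was then -0.42 (SE 0.25, edgeR adjusted p = 0.328), so the division into 2 groups rests on that library, and the class difference was -2.97. Summed myelinating Schwann cell markers ran from 347 to 2159 CPM in A-fibre libraries and from 958 to 2864 CPM in C-fibre libraries and followed Atp1b3 over the 26 libraries (Pearson r = 0.85 on the log2 scale, a description of libraries that share subtypes). Their part in the result was not tested.

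Atp1b2 encodes β2, first described as an adhesion molecule on glia, and took the smallest share of the β transcripts per length except in Aβ RA-LTMR library 5 (5.28% against 2.89% for Atp1b3) and proprioceptor library 3, where Atp1b3 took 3.68%. It had 23.5 to 149 CPM in the 17 A-fibre libraries, against 6.04 to 40.7 CPM in the 9 C-fibre libraries, and the ranges overlapped. The class difference was 1.59 (SE 0.18, edgeR adjusted p = 3.7e-08), a 3.01-fold higher level. Proprioceptors were highest, with 82.7, 83.2 and 98.2 CPM, and Aβ RA-LTMRs followed with 60.7, 46.6, 44.5, 72.9 and 149 CPM. Within the A-fibre class, proprioceptors passed against Aβ SA1-LTMRs (log2 difference 1.23, edgeR adjusted p = 0.00875) and Aβ Field-LTMRs (1.04, adjusted p = 0.0212), and the other 8 pairs did not pass. Nonpeptidergic nociceptors were lowest, with 6.04, 7.12 and 9.61 CPM, and were below each of the other 7 subtypes, as 6.5% of genes were for that subtype, the closest being C-LTMRs (log2 difference -1.84, SE 0.35, adjusted p = 1.66e-04). In between, Atp1b2 averaged 42.8 ± 9.86 CPM in Aβ Field-LTMRs, 32.7 ± 8.85 CPM in peptidergic nociceptors and 27.1 ± 0.253 CPM in C-LTMRs (SD, n = 3 each). It had 48.7 to 63.9 CPM in Aδ-LTMRs and 23.5 to 47.2 CPM in Aβ SA1-LTMRs. These 5 subtypes had no passing difference between neighbours in the order of their levels. The highest of them, Aδ-LTMRs, passed against the lowest, C-LTMRs (log2 difference 1.05, SE 0.34, edgeR adjusted p = 0.02).

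Atp1b2 moved with the satellite glia markers over the 26 libraries (Pearson r = 0.92 on the log2 scale, a description). The markers summed to 2033 to 4236 CPM in proprioceptors, where Atp1b2 was highest, and to 342 to 451 CPM in nonpeptidergic nociceptors, where it was lowest. Aβ RA-LTMR library 5 had the most Atp1b2 of any library and the highest marker sum of its subtype, 3351 CPM. With the mean log2 level of those markers as a covariate, the class difference of Atp1b2 was 0.59 (edgeR adjusted p = 0.325), the test over the 8 subtypes gave an adjusted p of 0.244, and 0 of the 28 pairs passed. The marker level itself differs between the subtypes, so that covariate and subtype are partly confounded. In the same fit the class difference was 1.80 for Atp1b1 (edgeR adjusted p = 4.05e-08) and -3.65 for Atp1b3 (adjusted p = 2.95e-07).

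**Figure D2:**
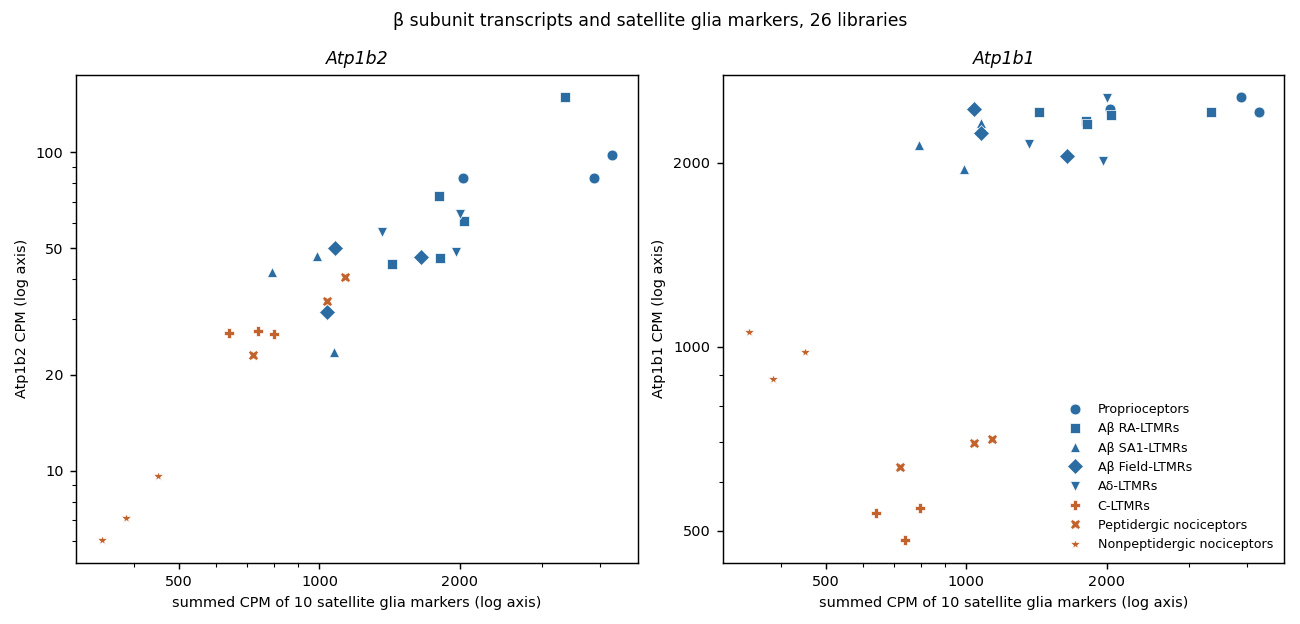
CPM of Atp1b2 (left) and Atp1b1 (right) against the summed CPM of 10 satellite glia markers in 26 libraries, log axes, with a symbol for each subtype and blue for A-fibre subtypes. Atp1b2 runs along the marker sum from nonpeptidergic nociceptors at the low end to proprioceptors and 1 Aβ RA-LTMR library at the high end. Within the A-fibre libraries Atp1b1 stays between 1957 and 2566 CPM over their range of marker sums. Over all 26 libraries its Pearson r with the markers is 0.66 on the log2 scale, against 0.92 for Atp1b2.

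Compared per length within each library, the makeup of the β transcripts differed between classes. Atp1b1 made up 78.1% to 95.4% of the summed RPKM of the 3 β genes in A-fibre libraries, against 31.0% to 57.6% in C-fibre libraries. Atp1b3 made up 2.34% to 18.5% in A-fibre libraries, against 39.0% to 66.8% in C-fibre libraries, and was the larger of the pair in C-LTMRs (64.8% ± 1.72) and nonpeptidergic nociceptors (63.4% ± 1.78; SD, n = 3 each) but not in peptidergic nociceptors (41.8% ± 2.72, n = 3). Atp1b2 never exceeded 5.28%. The shares of Atp1b1 and Atp1b3 each differed over the 8 subtypes with an adjusted permutation p of 1.2e-05, whose raw value of 1e-05 is the smallest that 100000 resamples can give, and that of Atp1b2 with an adjusted permutation p of 0.00394. The sum of the 3 β genes was 552 to 911 RPKM in A-fibre libraries, against 440 to 862 RPKM in C-fibre libraries. Within the C-fibre class it was 440 to 489 RPKM in peptidergic nociceptors, below every A-fibre library. These sums compare RPKM between libraries, where its ratio to CPM varies, and are only a description.

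**Figure D3:**
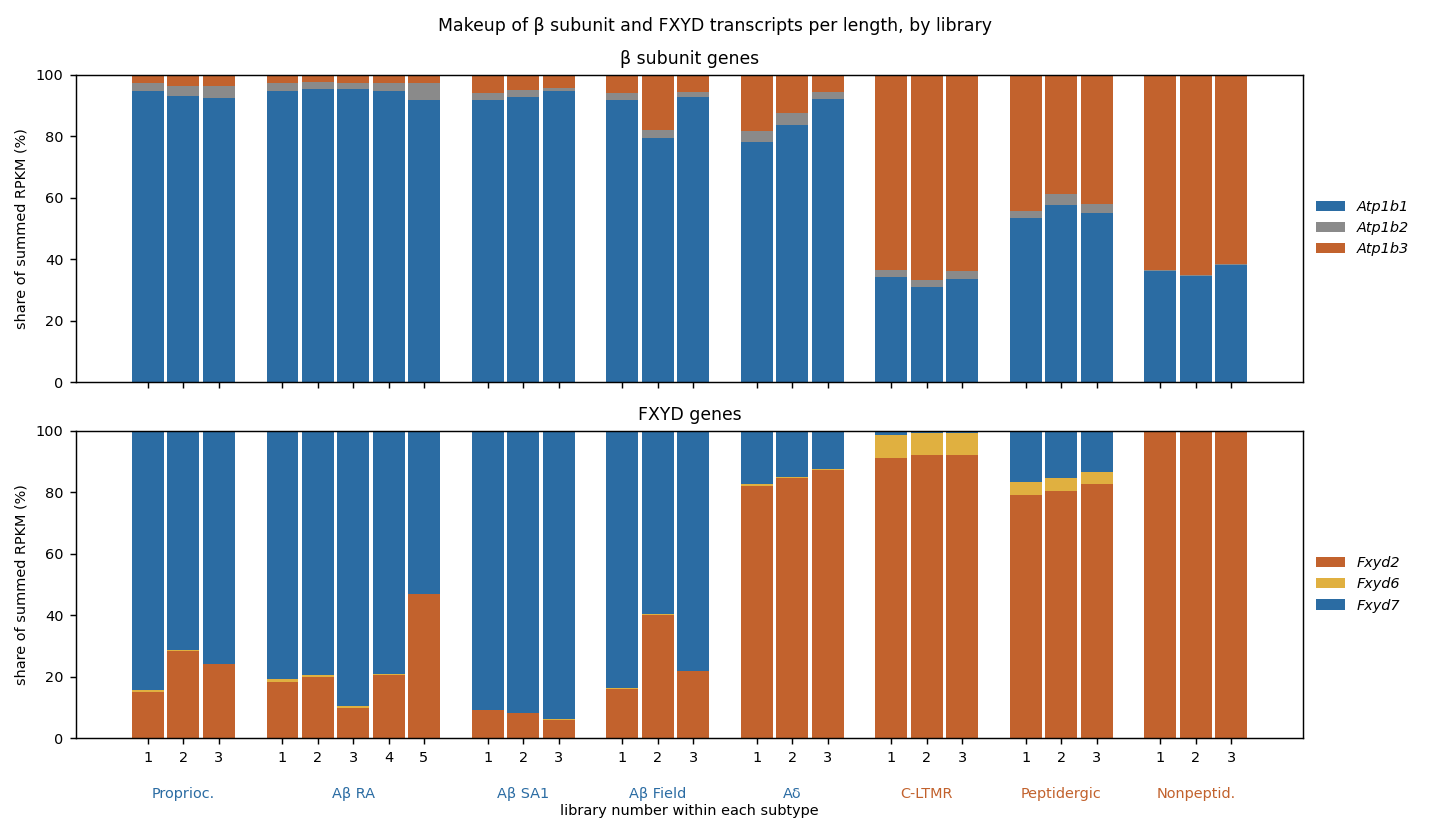
Share of the summed RPKM (%) taken by each β gene (top) and each of the 3 FXYD genes (bottom) in every library, with A-fibre subtypes on the left. Atp1b3 is at most 18.5% in A-fibre libraries and at least 39.0% in C-fibre libraries, and Fxyd2 takes most of the FXYD sum in Aδ-LTMRs as it does in the C-fibre subtypes.

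Fxyd2 encodes the γ subunit, best known from the kidney, and was the most abundant FXYD transcript of the series through its level in nonpeptidergic nociceptors. There it had 2613, 2486 and 3316 CPM, which is 5739 to 7745 RPKM. C-LTMRs had 561, 638 and 554 CPM and peptidergic nociceptors 225, 243 and 211 CPM. Over all A-fibre libraries it ran from 6.21 to 1189 CPM (median 25.5), against 211 to 3316 CPM (median 561) in C-fibre libraries, and the class difference was -3.74 (SE 0.36, edgeR adjusted p = 6.69e-09).

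The A-fibre range came mainly from the Aδ-LTMRs, which had 196, 323 and 1189 CPM and overlapped the C-fibre libraries. The other A-fibre libraries lay between 6.21 and 122 CPM. Nonpeptidergic nociceptors passed against each of the other 7 subtypes, as 2.05% of genes did for that subtype. The largest difference was with proprioceptors (14.8, 25.5 and 24.2 CPM), a log2 difference of 7.02 (SE 0.91, adjusted p = 9.94e-07). The closest was C-LTMRs (2.26, SE 0.73, edgeR adjusted p = 0.0185), and passing against all 7 was fragile. Without C-LTMR library 1, 2 or 3, the largest edgeR adjusted p over the 7 pairs was 0.0647, 0.0549 or 0.0666. Without Aδ-LTMR library 1 or 2, the smallest difference was 1.84 (largest adjusted p = 0.0784) or 1.97 (largest adjusted p = 0.0782). Leaving out Aδ-LTMR libraries changes their level and not that of C-LTMRs, so the smallest difference was then with Aδ-LTMRs. With both of those Aδ-LTMR libraries left out it was 1.19, against a single Aδ-LTMR library (1189 CPM).

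Fxyd2 also varied more between libraries of a subtype than the other 5 genes did, with a biological coefficient of variation of 0.575 against 0.125 to 0.337. Aβ RA-LTMR library 5 had 76.5 CPM, against 6.21 to 15.8 CPM in the other 4, and Aβ Field-LTMR library 2 had 122 CPM, against 37.2 and 45.4 CPM. Mrgprd, the label gene of nonpeptidergic nociceptors (808 to 1183 CPM there), had 15.7 CPM in that Aβ RA-LTMR library and 1.17 to 14.5 CPM in the other 4. It had 83.1 CPM in that Aβ Field-LTMR library and 66.3 and 18.2 CPM in the others, and 28.9 to 35.4 CPM in the Aδ-LTMRs. Summed myelinating Schwann cell markers followed Fxyd2 over the 26 libraries (Pearson r = 0.84 on the log2 scale, a description). They reached 741 CPM in Aβ RA-LTMR library 5 and 524 to 724 CPM in the other 4. In Aβ Field-LTMRs they were 1330 CPM in library 2, against 726 and 736 CPM. Aδ-LTMR libraries 1, 2 and 3 had 2011, 2159 and 1476 CPM, lowest in library 3 where Fxyd2 was highest. The part of Mrgprd or of these markers in the Fxyd2 values was not tested. Without Aβ RA-LTMR library 5, Aβ Field-LTMR library 2 and Aδ-LTMR library 3, the class difference was -4.34 (edgeR adjusted p = 3.39e-16). That exclusion was chosen after the values were seen.

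Fxyd6 encodes phosphohippolin, an FXYD protein known from the nervous system, and was highest in C-LTMRs. They had 163, 176 and 148 CPM, followed by peptidergic nociceptors with 42.1, 44.7 and 32.3 CPM. No other library exceeded 7.49 CPM. C-LTMRs passed against each of the other 7 subtypes, as 0.902% of genes did for that subtype, by 2.03 against peptidergic nociceptors (SE 0.30, edgeR adjusted p = 1.86e-05) and by 7.42 against Aβ SA1-LTMRs (SE 0.39, adjusted p = 7.39e-13). In A-fibre libraries it had 0.748 to 7.49 CPM (median 1.36), against 2.25 to 176 CPM (median 42.1) in C-fibre libraries, a class difference of -3.86 (SE 0.16, edgeR adjusted p = 1.52e-16).

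The C-fibre side was not uniform for Fxyd6, since nonpeptidergic nociceptors had 4.13, 3.56 and 2.25 CPM, within the A-fibre range. Aδ-LTMRs, at 6.02, 4.35 and 7.49 CPM, were above each of the other 4 A-fibre subtypes, and all 4 of those pairs passed. Fxyd6 and Fxyd2, neighbours on chromosome 9, thus had their highest levels in different C-fibre subtypes. Summed markers of pericytes and smooth muscle were 686 to 1754 CPM in C-LTMRs and at most 540 CPM in any other library, and summed fibroblast markers 133 to 160 CPM in C-LTMRs and at most 83.8 CPM elsewhere. Their part in the Fxyd6 level was not tested.

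Fxyd7 encodes an FXYD protein known from brain neurons and took the largest share of the 3 FXYD genes per length in every Aβ and proprioceptor library. Its level was not particular to those subtypes, since Aδ-LTMRs averaged 92.4 CPM, against 58.6 CPM in Aβ RA-LTMRs and 77.3 CPM in proprioceptors. Fxyd7 had 37.6 to 339 CPM (median 88.0) in A-fibre libraries, against 2.75 to 48.6 CPM (median 8.02) in C-fibre libraries. The class difference was 3.39 (SE 0.24, edgeR adjusted p = 4.68e-12), a 10.5-fold higher level. Aβ SA1-LTMRs were highest with 232, 319 and 339 CPM and Aβ Field-LTMRs next with 192, 186 and 164 CPM, a log2 difference of 0.72 (SE 0.39, adjusted p = 0.244) that did not pass.

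Aβ SA1-LTMRs passed against the other 6 subtypes, and both subtypes passed against Aβ RA-LTMRs (37.6 to 88.2 CPM) and proprioceptors (77.3 CPM on average and at most 88.0 CPM in 3 libraries). Aδ-LTMRs had 42.3, 58.2 and 177 CPM, so that library 3 stood high for Fxyd7 as it did for Fxyd2. Peptidergic nociceptors had 48.6, 47.7 and 35.4 CPM, overlapping the lower A-fibre libraries, and did not pass against proprioceptors or Aβ RA-LTMRs. C-LTMRs (5.01 to 8.87 CPM) and nonpeptidergic nociceptors (2.75 to 8.02 CPM) were lowest and did not differ beyond the spread (log2 difference 0.42, SE 0.41, edgeR adjusted p = 0.449).

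**Figure D4:**
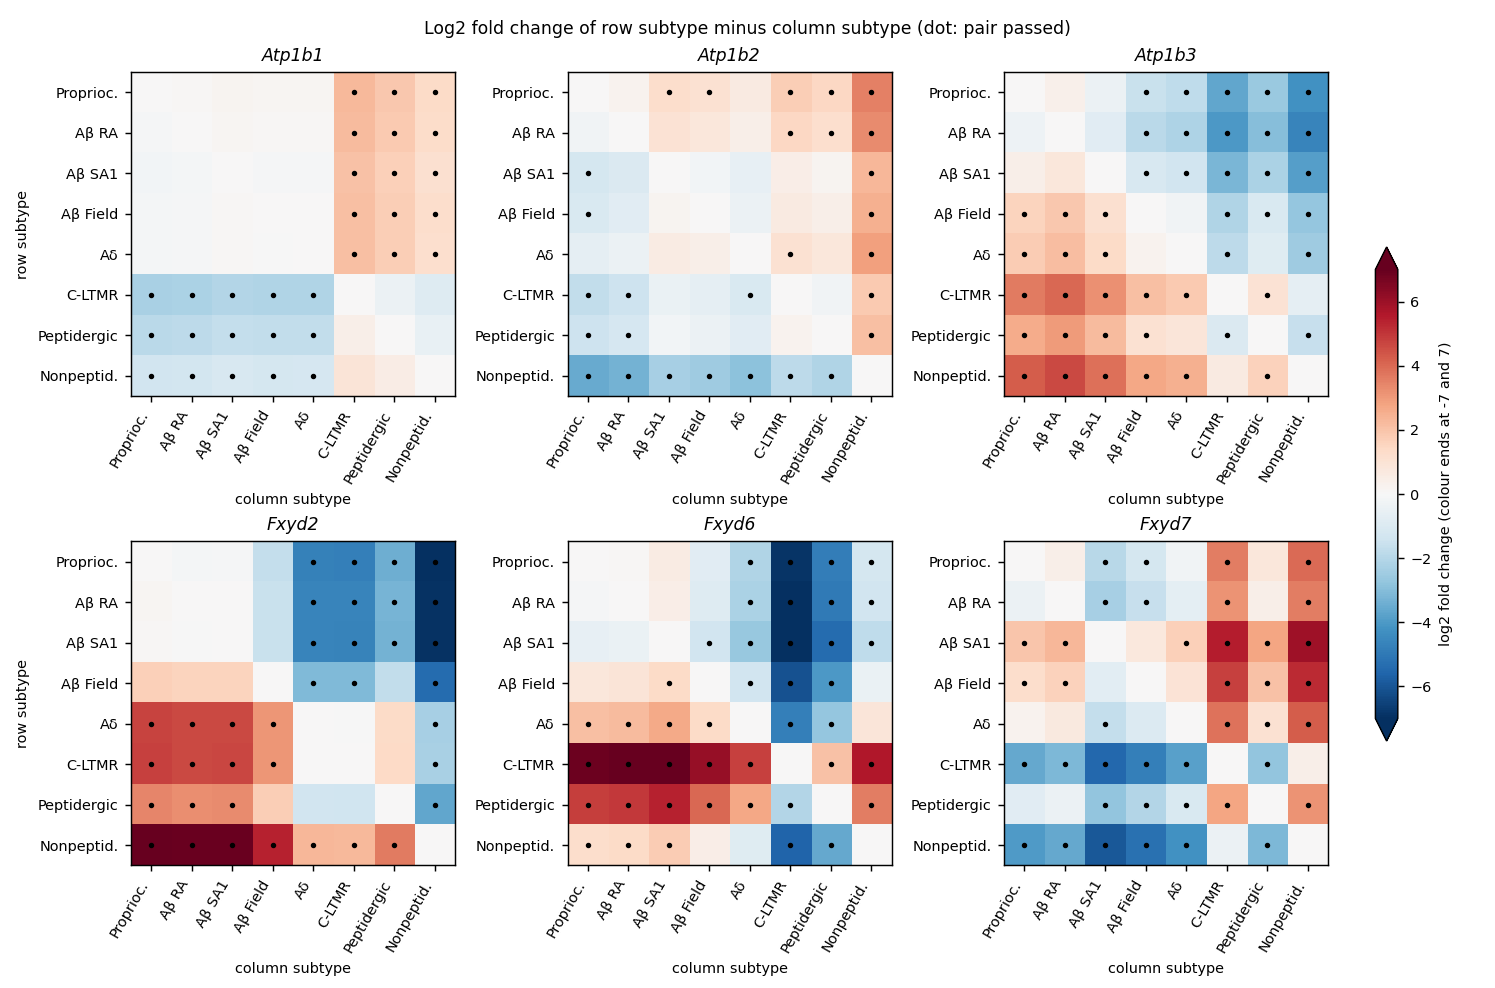
Log2 fold change of the row subtype minus the column subtype for each gene, red where the row subtype is higher, with a dot where the pair passed; the colour ends at -7 and 7. Atp1b1 shows 1 block of 15 passing pairs between classes, while the other 5 genes also have passing pairs within the A-fibre class, from 2 for Atp1b2 to 6 for Atp1b3.

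Per length, the FXYD makeup did not follow the fibre classes as the β makeup did. Fxyd7 made up 71.3% to 84.3% of the summed RPKM of the 3 FXYD genes in proprioceptors, 53.1% to 89.6% in Aβ RA-LTMRs, 90.8% to 94.0% in Aβ SA1-LTMRs and 59.6% to 83.7% in Aβ Field-LTMRs. Fxyd2 made up 81.9% to 87.2% in Aδ-LTMRs, 91.1% to 92.1% in C-LTMRs, 78.9% to 82.8% in peptidergic nociceptors and 99.7% to 99.9% in nonpeptidergic nociceptors. The Aδ-LTMRs therefore stood with the C-fibre subtypes in their FXYD makeup and with the A-fibre subtypes in their β makeup, where Atp1b1 took 84.6% ± 7.02 (SD, n = 3). Fxyd6 reached 7.27% ± 0.21 in C-LTMRs and 4.06% ± 0.33 in peptidergic nociceptors (n = 3 each), and at most 1.04% elsewhere. Each of the 3 shares differed over the subtypes (adjusted permutation p = 1.2e-05). The shares leave out the other FXYD genes, of which Fxyd1 averaged 53.8 RPKM in proprioceptors and Fxyd5 56.6 RPKM in peptidergic nociceptors.

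Of a list of 12 other pump and FXYD genes, 9 were tested, and 4 were higher and 3 lower in A fibres, where 15.6% and 12.9% of all genes tested were. Among the FXYD genes of the list, Fxyd1 (phospholemman, known from muscle) was higher in A fibres by 1.39 (SE 0.26, edgeR adjusted p = 6.49e-05), with 22.1 ± 9.66 CPM in proprioceptors. Fxyd5 (dysadherin, known from epithelia) was lower in A fibres (log2 difference -1.75, SE 0.25, adjusted p = 1.24e-06), and was highest in peptidergic nociceptors at 23.1 ± 3.01 CPM (SD, n = 3 each). Fxyd5, Fxyd7 and Fxyd1 are adjacent on chromosome 7, with gaps of 31 and 210 bases, and Fxyd7 and Fxyd1 were higher in A fibres where Fxyd5 was lower. Fxyd4 and Atp4a passed at under 2 CPM in every subtype.

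Of the 5 genes for proteins reported to bind the pump, 2 were higher and 1 lower in A fibres: Nkain3 by 1.86 (SE 0.26, edgeR adjusted p = 1.14e-06), Nkain4 by 1.37 (SE 0.27, adjusted p = 1.15e-04) and Nkain1 by -1.82 (SE 0.31, adjusted p = 1.71e-05), with a median over the 5 of 0.77 against 0.02 over all genes tested, of which 15.6% were higher and 12.9% lower. These Nkain genes stayed near or under 6 CPM. Of 17 genes for carriers that run on the sodium gradient, 3 were higher, none lower, and the median was 0.57. A share of 3 in 17 is near the 15.6% of all genes tested that were higher. Those higher included Slc8a3, a sodium/calcium exchanger (2.49, SE 0.12, adjusted p = 3.11e-15), and Slc38a1, a sodium-coupled glutamine carrier (1.79, SE 0.11, adjusted p = 5.62e-13). For both, as for Atp1b1, A-fibre and C-fibre libraries did not overlap.

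**Figure D5:**
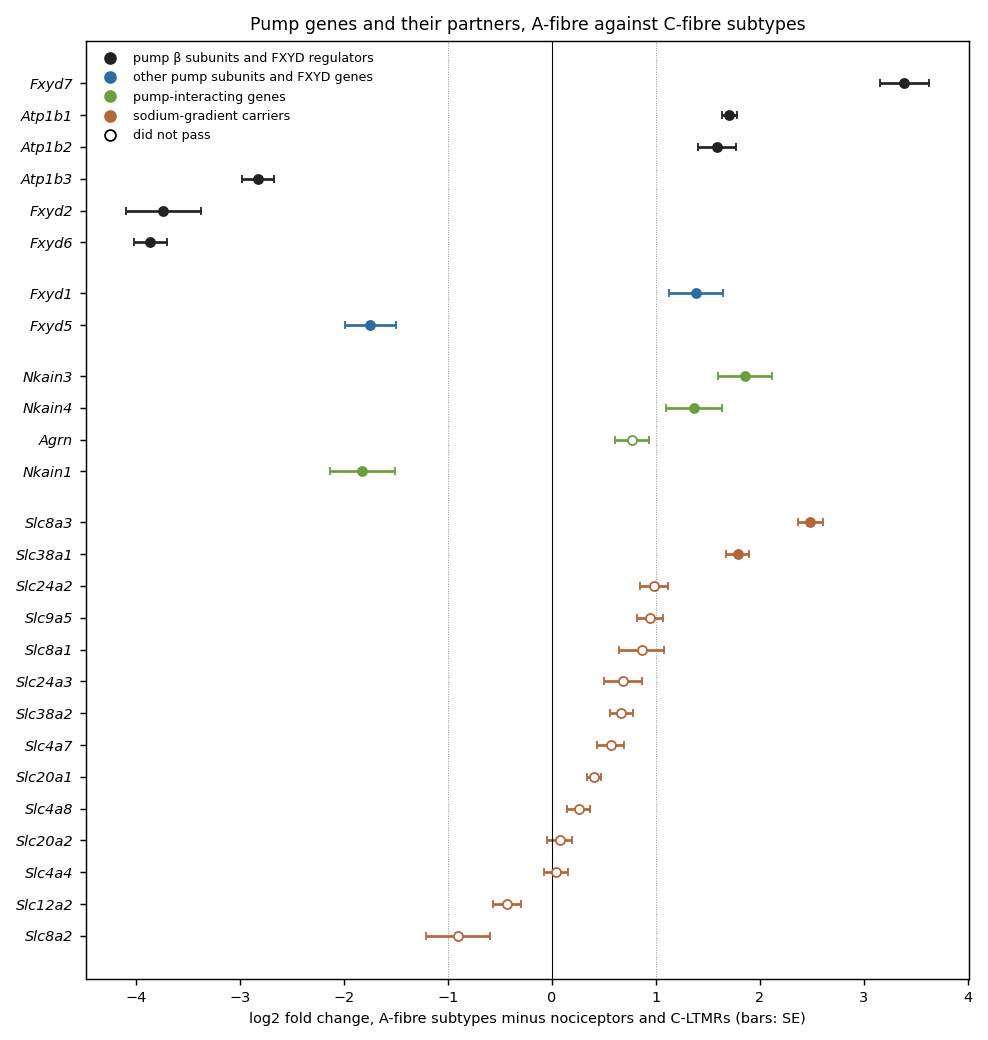
Log2 fold change of A-fibre subtypes minus nociceptors and C-LTMRs with its SE for the 6 genes and for a selection of listed pump, FXYD, interacting and sodium-gradient genes tested with at least 5 CPM in their highest subtype; open circles did not pass. Fxyd7, Atp1b1 and Atp1b2 lie at 1.59 or more and Atp1b3, Fxyd2 and Fxyd6 at -2.83 or less, whereas most carrier genes lie between -1 and 1.

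Among 9469 genes with a mean of at least 5 CPM, those whose log2 CPM correlated best with each member over the 26 libraries are given as a description, since libraries of a subtype share their pattern. For Atp1b1 they were Bcar3, Asb13 and Bckdhb (Pearson r of 0.94 to 0.95), and for Atp1b3 Kdsr, Synpr and Paqr5 (0.97 to 0.98). For Atp1b2 they were Slc43a3 and Slc27a1 (0.95 to 0.96). For Fxyd2 they were Dgkz, Rasgef1a and Socs2 (0.93 to 0.96), for Fxyd6 Pam, Scn3b and Tmeff1 (0.91 to 0.94), and for Fxyd7 Asrgl1, Pcp4l1 and Phyhipl (0.91 to 0.92). Between the members themselves, Atp1b3 and Fxyd2 were closest (r = 0.90) and Atp1b1 and Fxyd6 ran most opposite (r = -0.88).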

How the data were processed

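Sorted dorsal root ganglion neurons were amplified with a NuGEN kit and prepared with TruSeq, per the labels' protocols, and mm10 is the build named. Of tools, FastQC 0.11.3, Cuffdiff and DESeq2 1.14.1 are listed beside HTSeq 0.6.1 and STAR, without a role for each, per the submitters' processing notes. The authors deposited raw counts per Ensembl gene, RPKM values, regularized log2 values and an alignment summary per library whose exonic shares are fractions, which also holds a coverage ratio not used here; annotation release and strand setting are not given in the sources used here.

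Counts of 39017 genes were tested with edgeR 4.0.16 (filterByExpr by subtype leaving 17411 genes, TMM, robust quasi-likelihood fit over all 26 libraries, R 4.3.3), which was checked on simulated data. One fit gave the F test over 8 subtypes, the class contrast and 28 pairs; p-values were adjusted over all genes tested (Benjamini-Hochberg), and a contrast or pair passed at an adjusted p under 0.05 and a log2 fold change of at least 1 in size. CPM is the count scaled to a TMM-adjusted library size by edgeR. SE is the log2 fold change over the square root of its F statistic. Levels of different genes were compared only by RPKM within a library. The reason was that the ratio of a gene's deposited RPKM to its CPM varied between libraries by 1.83-fold (Atp1b3) to 2.61-fold (Fxyd7). RPKM shares were tested by a permutation test with 100000 resamples of the library labels, adjusted over 6 shares (NumPy 2.4.6). Libraries of a subtype differed by more than sampling noise (chi-square per degree of freedom of at least 9.16 over 31 pairs).

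The members, the gene lists and the marker lists were chosen with earlier results of these data known. The text names all 6 members, listed genes that passed the class contrast with at least 5 CPM in their highest subtype, and the 3 genes most like each member; Fxyd4 and Atp4a were named after their values were seen. Some genes that this rule names are not reported here. Alternatives were DESeq2 1.42.0, limma 3.58.1 on log2 RPKM or on the regularized values, other scalings, no filter, covariates and libraries left out.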

Additional observations from a re-analysis of the deposited data

Results flagged for a closer look

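Aβ RA-LTMR library 5 stood apart from the other 4 libraries of its subtype in 6 of the 12 measures examined in the only subtype with enough libraries for such a check (the gap to the nearest library over the range exceeded the critical value of 0.710 for 5 libraries, which chance exceeds in about 1 of 20 measures; the measures share libraries). Atp1b2 had 149 CPM there, with 72.9 CPM in the nearest library, and its share of the β sum was 5.28%. Fxyd2 had 76.5 CPM there, with 15.8 CPM in the nearest, and made up 46.7% of the FXYD sum. The share of Atp1b1 was 91.8% and that of Fxyd7 was 53.1%. This library also had the lowest exonic share of the series, 45.7%. Without it the class difference was 1.51 for Atp1b2 and -3.98 for Fxyd2, and 24 rather than 18 of the 28 pairs passed for Fxyd2.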

How the results depend on the processing

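Over the alternatives with all or most libraries, 454 of 480 values were scored as kept and none as reversed, and leaving out single libraries kept 1007 of 1014. A log2 difference or adjusted p was scored as kept when its side of the threshold stayed and no passing difference changed sign. Counts were scored as kept within a limited factor, so that 24 rather than 18 pairs for Fxyd2 without Aβ RA-LTMR library 5 was kept. The class difference of each member kept its sign throughout: 1.22 to 1.80 for Atp1b1, 0.59 to 1.97 for Atp1b2, -3.65 to -2.12 for Atp1b3, -5.65 to -2.84 for Fxyd2, -4.02 to -2.88 for Fxyd6 and 2.30 to 3.80 for Fxyd7. With the satellite glia score as covariate, Atp1b2 lost its calls (adjusted p over subtypes 0.244, class difference 0.59, 0 of 28 pairs), Atp1b3 in nonpeptidergic nociceptors passed against the closest subtype (1.40, adjusted p = 0.0324), other pump and FXYD genes were 2 higher and 0 lower, pump-interacting genes 1 higher and 0 lower, and carriers 5 higher and 1 lower. By limma, pairs passing for Atp1b2 numbered 7 on log2(RPKM + 1), 7 on log2(RPKM + 0.1) and 9 on the regularized values; other pump and FXYD genes were 2 higher and 1 lower, 2 higher, and 1 higher; pump-interacting genes were 1 higher on log2(RPKM + 1) and on the regularized values; and 1 carrier was lower on log2(RPKM + 0.1). The difference between Fxyd2 in nonpeptidergic nociceptors and the closest subtype was 2.21 with no low-count filter (largest adjusted p over the 7 pairs 0.0581). With read-length class as covariate it was 1.24 (largest adjusted p 0.155). It was 1.19 without Aδ-LTMR libraries 1 and 2, which leaves a single Aδ-LTMR library, and 1.84 to 2.34 without single libraries. One carrier was lower under the replicate block, without 5 libraries of low exonic share and without the 3 libraries far off for Fxyd2 (both chosen after seeing the data), and 0 to 1 without single libraries. The cause was not tested for any of these. Replicate numbers did not pair the libraries (4 of 84 same-numbered pairs had a correlation of deviations over 0.1, and 8 of 26 libraries matched best with their own number); with the replicate block the class differences were 1.71, 1.48, -2.85, -4.06, -3.82 and 3.33 in the order above. Over all genes, 2723 were higher and 2246 lower in A fibres, against 770 and 1138 on log2(RPKM + 1), 1603 and 2169 on log2(RPKM + 0.1) (median shift -0.15), 1440 and 1258 on the regularized values and 1482 and 1372 with the glia covariate. Fxyd6 was low in A fibres, at 0.748 to 7.49 CPM, where counting error weighs more.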
